A study of Arabidopsis thaliana with 44 samples.

Results

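Late cold genes of the SW and IT ecotypes are genes whose transcripts stood near or below their warm level after 24 h at 4°C and were about 2-fold or more above it after 2 weeks, in both ecotypes. They were chosen by 6 of the 22 expression columns. With L the log2 ratio of cold over warm FPKM after adding 0.5 FPKM to each, a gene was taken when L was 1 or more at 2 weeks and 0.3 or less at 24 h, in SW and in IT, and when it reached 2 FPKM in both ecotypes at 2 weeks. This gave 32 of 33557 genes. FPKM is the number of sequenced fragments of a gene relative to its length and to the size of the library.

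The study grew *Arabidopsis thaliana* SW (collected in Sweden) and IT (collected in Italy), and mutants made in each with CRISPR/Cas9, on soil at 22°C for 23 days. They were sampled then (warm) or after a further 24 h or 2 weeks at 4°C in weaker light, and RNA of the whole aerial part was sequenced. The 44 samples form 22 groups of 2, and each group has 1 column, the authors' pooled value of its 2 samples, so the values below carry no replicate error and were not tested, and differences between columns are described only. The lines from SW are sw-cbf2 (*CBF2* inactive), sw-cbf23, which is known from its label only, and sw-cbf123 (*CBF1*, *CBF2* and *CBF3* inactive). IT itself, and with it every line made from IT, carries a *CBF2* allele that gives a truncated protein. The line it8 corresponds to the IT triple mutant by its name in a supplementary chart, it33 is known from its label only, and the line labelled 35s was sampled in the warm only. The paper lists plants overexpressing *CBF2* among those sequenced. The label does not say whether 35s is that line or which ecotype it came from, and its *CBF2* level is given below. The CRISPR T-DNA had been crossed out of the mutants. Plants at 2 weeks of cold were also 2 weeks older and had been in weaker light, and cold, age and light cannot be told apart in these groups.

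The *CBF* genes encode AP2/ERF transcription factors that are induced within minutes of a shift to low temperature and act on genes with the CRT/DRE element. Other cold responses of Arabidopsis need days to weeks. The textbook case is *VIN3*, the PHD finger gene of vernalization, which accumulates only under long cold. Long cold also brings growth, cell wall, membrane and chloroplast changes, in which hormone genes take part.

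The 29 genes of the 32 that have an entry in the annotation used (TAIR10.1, RefSeq) comprise 28 protein-coding genes and 1 long non-coding RNA. They lie on all 5 chromosomes (7, 3, 5, 4 and 10 genes on chromosomes 1 to 5). Their median exon length was 1603 bases (162 to 3855), beside 1796 bases for 15209 genes at 2 FPKM or more in both ecotypes at 2 weeks. By the product names, 2 of the 29 fell in the transcription factor class (*MYB47* and *MYB53*; 4.41% of those 15209 genes did, and the keyword missed *bZIP52*, *EBP*, *RL1* and AT3G25990), 2 in the auxin class (AT4G34810 and AT5G57770; 0.493%) and 4 in the unknown class (6.23%). Of the other 18 keyword classes examined, only the kinase class held a gene (AT1G29720).

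The 250 bases before the annotated start of each of the 29 genes were searched on both strands for 9 short words. The core of the CRT/DRE element (CCGAC) was in 1 of 29 windows, that of AT1G29720, against 12.2% of 32812 windows of all genes. The G-box CACGTG was in 3 (5.82% of all), the W-box (TTGACC or TTGACT) in 8 (28% of all), GATAAG in 3 (12.6%) and GGCCCA in 2 (12.3%). The evening element AAAATATCT (2.22% of all), ACGTGG (7.5%), AAACCCTA (4.75%) and CGCGT (6.8%) were in 0 of 29. ACGTGG can overlap a G-box, and CCGAC holds no other word. Each window is shown for a gene described below, from TAIR10.1, 5′ to 3′ on the strand of the gene, with the words in capitals: the window of *RL1*, the gene with the highest 2-week ratio in IT, holds the W-box in its reverse form AGTCAA at 2 places, and that of AT1G29720 holds the only CCGAC of the set and a W-box in reverse (GGTCAA).
RL1, chr4:18272130-18272379, minus strand: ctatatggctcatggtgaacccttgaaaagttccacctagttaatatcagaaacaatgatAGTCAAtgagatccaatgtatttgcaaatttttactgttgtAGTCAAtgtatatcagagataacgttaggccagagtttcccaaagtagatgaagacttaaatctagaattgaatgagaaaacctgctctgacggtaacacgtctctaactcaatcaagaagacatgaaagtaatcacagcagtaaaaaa
AT1G29720, chr1:10399874-10400123, minus strand: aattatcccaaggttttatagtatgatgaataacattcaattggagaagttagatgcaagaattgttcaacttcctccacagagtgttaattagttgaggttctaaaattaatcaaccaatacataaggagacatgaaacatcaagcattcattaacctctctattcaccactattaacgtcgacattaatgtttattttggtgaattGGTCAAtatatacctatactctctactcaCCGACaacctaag

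Over the 22 columns the FPKM sums ran from 880986 to 1101341, and 17705 to 18118 genes reached 1 FPKM. The depth of the libraries is unknown. The *CBF* transcripts do not check the edited lines, because small deletions leave the transcript in place: *CBF2* was at 35.98 FPKM in SW, 25.2 in IT, 107.96 in sw-cbf123 and 26.5 in it8 at 24 h. In the warm it was at 539.5 FPKM in 35s and 0.202 in IT. Of the leaf mesophyll markers, all 5 were expressed, while the 6 flower markers stayed under 1 FPKM in every column and so did 5 of the 6 root markers. The mesophyll sums were 34959 to 41274 FPKM in the warm, 23202 to 25687 at 24 h and 7394 to 41249 at 2 weeks. The lowest sum was thus not shared by all 2-week columns. The 5 xylem and secondary wall markers moved with the cold, with sums of 27.4 to 54.6 FPKM in the warm and 5.63 to 10.8 at 2 weeks. The sums of the guard cell, phloem and trichome markers overlapped between warm and 2 weeks. They were 1390 to 2766 and 1564 to 1823 FPKM for guard cells and 208 to 256 and 188 to 255 for phloem. For trichomes they were 7.40 to 11.3 and 6.85 to 12.5 FPKM. The part of the markers in the results was not tested. In whole aerial parts, fewer cells of a type and less RNA per cell cannot be told apart.

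The late pattern within the ecotypes is a description, since it chose the genes. By the rule all 32 were at 1 or more at 2 weeks, where 9.39% of all genes tested were in SW and 7.89% in IT. SW alone had 217 genes with the pattern (1.34% of 16179 genes at 2 FPKM or more at 2 weeks) and IT alone had 288 (1.74% of 16511), so the 32 genes are 14.7% of the SW set and 11.1% of the IT set. The median L of the 32 genes was −0.10 at 24 h and 1.18 at 2 weeks in SW, and 0.02 and 1.33 in IT. Below the 24 h limit the genes were not alike. In SW 23 and in IT 24 of the 32 lay within 0.3 of their warm level at 24 h, and 4 in SW (14.7% of all genes) and 3 in IT (10.9%) were at −1 or less, among them the ethylene response factor gene *EBP* (−1.28 in SW), the SAUR gene AT4G34810 (−1.40 in SW and −1.07 in IT) and AT3G04184 (−1.51 in SW). AT1G77580, a filament-like protein gene, was at −0.96 in SW and −0.27 in IT. At 2 weeks, 10 of the 32 were under 10 FPKM in both ecotypes and 3 were at 50 FPKM or more in both, *CRR42*, *EBP* and ATCG00600.

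Many of the genes lie close to the limits. A threshold was within 0.1 for 16 of the 32, and a further 28 genes missed a single threshold by 0.1 or less. Just inside were AT5G49990 (0.29 at 24 h in SW), AT1G55675 (1.01 at 2 weeks in SW) and *bZIP52* (1.01 at 2 weeks in IT). Just outside were AT1G70150 (0.999 at 2 weeks in SW), *ESM1* (0.997 in SW) and *HAOX2* (0.996 in IT). With the 24 h limit at 0 instead of 0.3, 12 genes met the rule, and with 0.5 there were 54, both limits chosen after the data were seen.

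**Figure D1:**
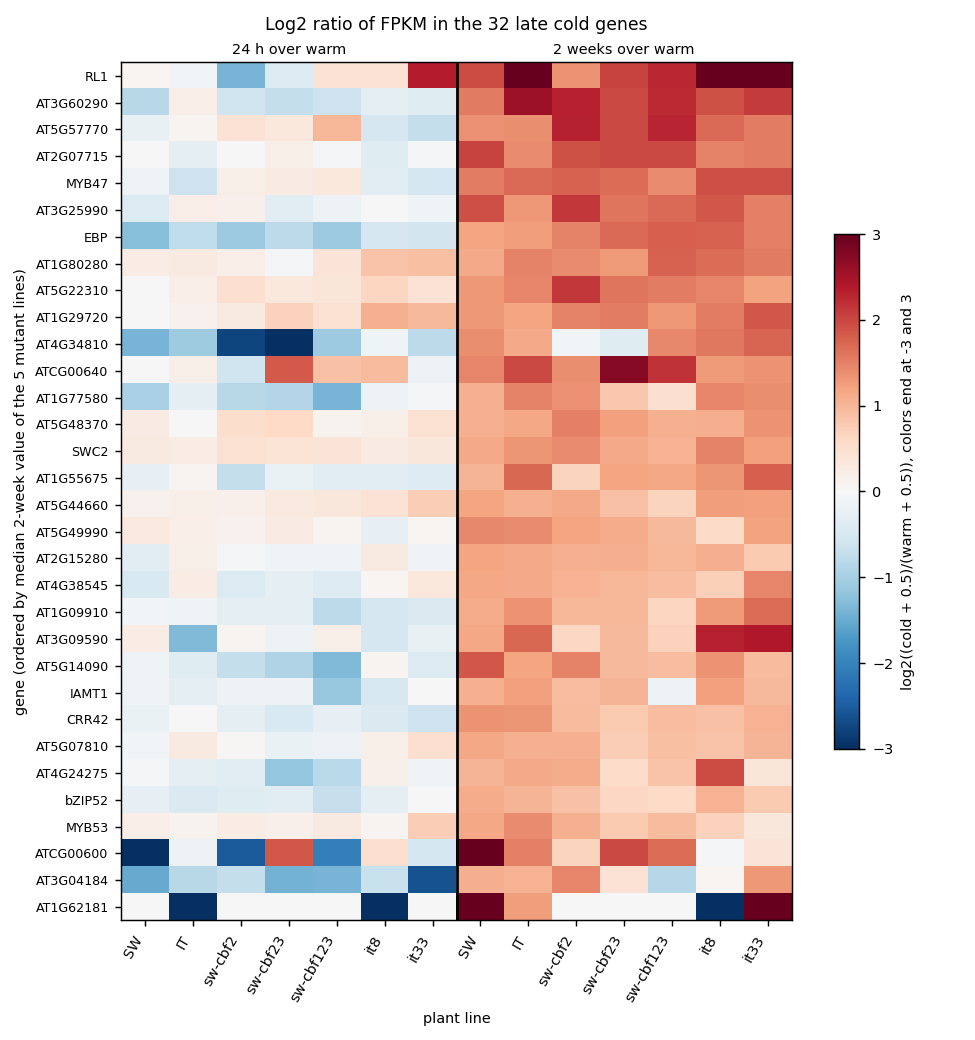
Heat map of log2((cold + 0.5)/(warm + 0.5)) of the 32 genes (rows) in 7 lines (columns), at 24 h (left) and 2 weeks (right). Red is higher in the cold and blue lower, and the colors end at −3 and 3. The SW and IT columns chose the genes, and most rows stay red at 2 weeks in the mutant lines, with AT1G62181, AT3G04184 and ATCG00600 at the bottom as the least even.

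The 5 mutant lines hold columns that the rule did not use. In each, most or many of the genes were again higher at 2 weeks than in the line's own warm plants. L at 2 weeks was 1 or more for 23 of the 32 genes in sw-cbf2 (9.95% of 18714 genes were), 19 in sw-cbf23 (9.08% of 18805), 16 in sw-cbf123 (9.22% of 18645), 24 in it8 (8.08% of 18687) and 25 in it33 (7.56% of 18625). The counts are over all 32 genes, of which 31, 31, 31, 32 and 31 reached 1 FPKM in either column, the level that a gene needed to enter the shares of all genes. L was −1 or less for 1 gene in it8, AT1G62181 (8.84% of all genes), and for 0 in sw-cbf2 (10.5%), sw-cbf23 (9.71%), sw-cbf123 (11%) and it33 (9.31%). The medians of the 32 were 1.27, 1.1, 1.01, 1.33 and 1.37 in that order, where the medians of all genes tested lay between −0.002 and 0.0997. The share of the 32 genes was above that of all genes in every mutant line, and in sw-cbf123 16 of the 32 did not reach 2-fold.

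In all 5 mutant lines 13 of the 32 were at 1 or more (2.59% of 19235 genes), in at least 4 lines 14 (3.87%) and in at least 3 lines 20 (7.17%). The 13 were *MYB47*, AT1G29720, AT1G80280, AT2G07715, *SWC2*, *EBP*, AT3G25990, AT3G60290, *RL1*, AT5G22310, AT5G48370, AT5G57770 and ATCG00640. All 5 of the 2-week values lay above all 10 of the warm and 24 h values of the mutant lines for 18 of the 32 (3.94% of 20228 genes). Within the 3 SW mutants this held for 27 (17% of 19463) and within the 2 IT mutants for 29 (21.8% of 19253).

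L at 24 h was 0.3 or less for 28, 25, 23, 25 and 22 of the 32 genes in the mutant lines, from sw-cbf2 to it33. The median 24 h ratio of all genes tested lay between 0.01 and 0.06 in these lines. Most of all genes were thus at 0.3 or less as well, and their share was not counted. The whole late pattern, with L at 24 h of 0.3 or less, was met by 19 of the 32 in sw-cbf2 (1.52% of 16270 genes), 12 in sw-cbf23 (1.41% of 16379), 8 in sw-cbf123 (1.2% of 16244), 18 in it8 (1.96% of 16622) and 16 in it33 (1.84% of 16518). Only 4 met it in all 5 lines, AT2G07715, *EBP*, AT3G25990 and AT3G60290, while 9 met it in a single line and AT5G22310 in 0. Of the genes that were at 1 or more at 2 weeks, 4, 7, 8, 6 and 9 were above 0.3 at 24 h already, in the same order of lines. No share of all genes was counted beside these. A 24 h ratio of 1 or more was found for 2 genes in sw-cbf23 (ATCG00600 and ATCG00640; 13.3% of 18919 genes), 1 in it8 (AT1G29720; 11.4% of 18614), 1 in it33 (*RL1*; 11.4% of 18601) and 0 in sw-cbf2 (13.3% of 18736) and sw-cbf123 (12.1% of 18663). At −1 or less at 24 h were 4 (12.1% of all genes), 3 (11.9%), 7 (11.5%), 1 (10.7%) and 1 (11.3%) of the 32, again from sw-cbf2 to it33.

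**Figure D2:**
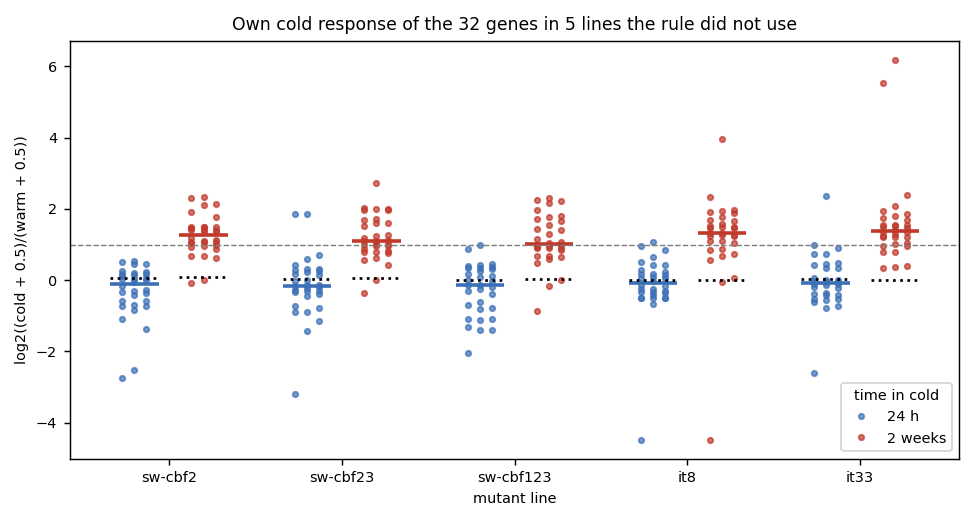
Own cold response of the 32 genes in the 5 mutant lines, as log2((cold + 0.5)/(warm + 0.5)); each point is a gene, blue at 24 h and red at 2 weeks, colored bars are medians of the 32, dotted bars medians of all genes tested, and the dashed line marks 1. The 2-week medians lie between 1.01 in sw-cbf123 and 1.37 in it33, and the 24 h medians lie near 0.

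Among the regulators, *RL1* had the highest 2-week ratio in IT. It encodes a small MYB-related protein of the RAD-like family, named after RADIALIS of snapdragon. *RL1* was at 0.905 FPKM in warm IT, 0.836 at 24 h and 24.7 at 2 weeks. In SW it was at 6.44, 6.69 and 26.6 FPKM. IT thus started lower and the ecotypes met at 2 weeks. The warm values of *RL1* were 9.13, 5.89 and 6.52 FPKM in sw-cbf2, sw-cbf23 and sw-cbf123, 2.39 in it8, 0.243 in it33 and 0.345 in 35s. At 24 h they were 3.19, 4.34 and 8.95 FPKM in the SW mutants and 3.40 and 3.31 in it8 and it33. At 2 weeks they were 24.1, 25.4 and 33.2 FPKM in the SW mutants and 44.2 and 53.6 in it8 and it33, above every warm and 24 h value of the mutant lines. The own 2-week ratios ran from 1.35 in sw-cbf2 to 6.19 in it33, but the 24 h ratio of *RL1* differed between lines, at −1.38 in sw-cbf2 and 2.36 in it33, where the warm level was lowest. Of the other RAD-like genes, *RL6* met the late pattern in IT, at 3.22, 1.64 and 14.4 FPKM with ratios of −0.80 at 24 h and 2.00 at 2 weeks, but was at −2.00 at 2 weeks in SW. At 2 weeks *MEE3* (also RL2) was at −2.25 in SW and −1.93 in IT, *RL3* at 0.82 and 0.41, *RL4* at −0.93 and 0.16, and *RL5* at −0.69 in SW, where it was at 0.934 FPKM, and at 2.92 FPKM in IT as in the warm.

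*EBP*, also known as RAP2.3, is a group VII ethylene response factor, the family whose stability depends on oxygen. It was lower at 24 h before it was higher at 2 weeks, in every line. *EBP* (chromosome 3, 5705541 to 5707084) was at 49.7 FPKM in warm SW, 20.1 at 24 h and 113.5 at 2 weeks, and at 31.9, 18.6 and 77.0 in IT. The mutant lines had 42.2, 42.5, 41.7, 31.0 and 37.5 FPKM in the warm (sw-cbf2, sw-cbf23, sw-cbf123, it8 and it33), 19.5, 24.4, 19.5, 21.6 and 25.4 at 24 h, and 120.1, 139.5, 146.0, 107.1 and 108.0 at 2 weeks. In the columns the rule did not use, the 24 h ratios of *EBP* were −1.09, −0.79, −1.08, −0.51 and −0.55 and the 2-week ratios 1.5, 1.70, 1.79, 1.77 and 1.52. In the mutant lines no 2-week value of *EBP* overlapped a warm or 24 h value. Of the other group VII genes, *RAP2.12* was at 1.11 in SW and 0.96 in IT by 24 h and at 0.58 and 0.68 at 2 weeks, and *RAP2.2* at 1.21 and 0.98 by 24 h and at 1.37 and 1.11 at 2 weeks, without the early dip. *ERF73* was at 0.54 and 1.38 by 24 h and at 0.81 and 1.60 at 2 weeks, and *ERF71* was under 1 FPKM in both ecotypes.

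*MYB47*, an R2R3-MYB gene, was at 3.45, 3.13 and 10.9 FPKM in SW and at 7.29, 4.59 and 24.9 FPKM in IT. Its 2-week values in the mutants were 16.1, 17.2 and 18.5 FPKM in sw-cbf2, sw-cbf23 and sw-cbf123, and 26.0 and 29.96 in it8 and it33. The IT lines were thus above the SW lines at 2 weeks without overlap, and the SW mutants above SW. The own 2-week ratios of *MYB47* ran from 1.42 in sw-cbf123 to 1.94 in it8. AT3G25990, annotated as homeodomain-like, was low throughout: 1.47, 0.981 and 7.07 FPKM in SW, 1.29, 1.56 and 3.88 in IT, and at 2 weeks 5.33, 4.29, 4.74, 5.03 and 4.76 in sw-cbf2, sw-cbf23, sw-cbf123, it8 and it33. Every warm and 24 h value of AT3G25990 in the mutants was 1.36 FPKM or less.

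The remaining regulators held less well in the mutants. *bZIP52*, a bZIP transcription factor gene, was at 10.2, 8.49 and 22.8 FPKM in SW and 2.65, 1.84 and 5.85 in IT. At 2 weeks *bZIP52* was at 12.4, 10.06 and 9.84 FPKM in the SW mutants and 5.11 and 4.16 in it8 and it33, and its own 2-week ratios were 0.89, 0.63, 0.60, 1.05 and 0.79. The warm SW level was above the 2-week levels of sw-cbf23 and sw-cbf123. *MYB53*, an R2R3-MYB known for a role in suberin synthesis, was at 1.47, 1.78 and 3.88 FPKM in SW and 0.831, 0.937 and 3.05 in IT. *MYB53* reached 2.68, 2.44 and 2.11 FPKM at 2 weeks in the SW mutants and 1.57 and 0.903 in it8 and it33. The it33 value at 2 weeks was below its 24 h value of 1.34 FPKM.

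**Figure D3:**
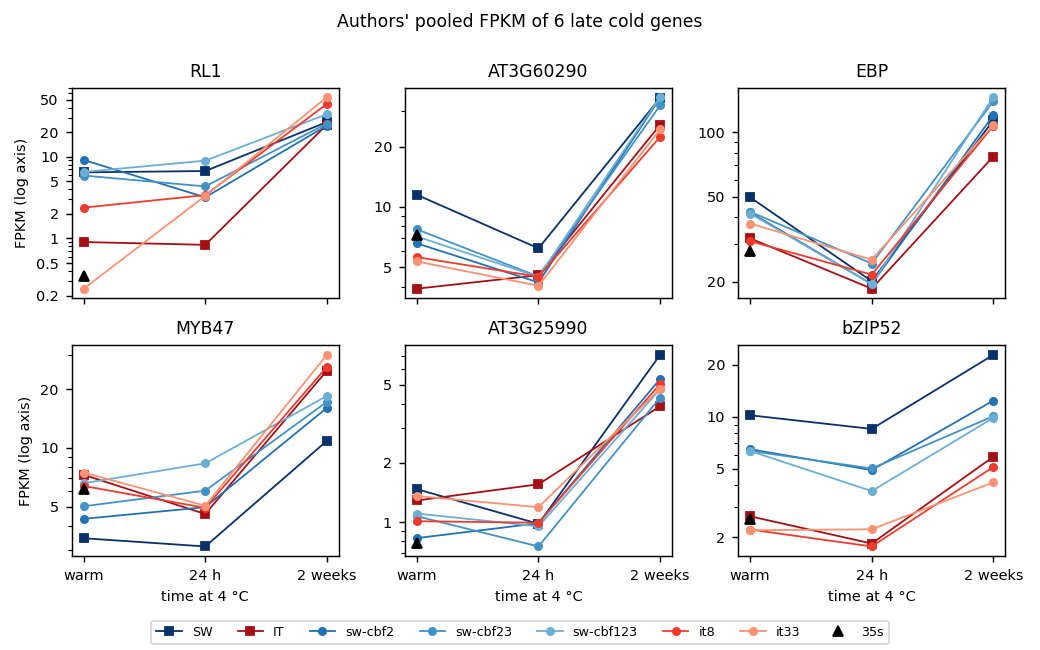
The authors' pooled FPKM (log axis) of 6 late cold genes against time at 4°C; each line or symbol is a plant line, squares for SW and IT, circles for the mutants and a triangle for 35s in the warm. EBP dips at 24 h in all 7 lines, RL1 starts between 0.243 and 9.13 FPKM and ends between 24.1 and 53.6, and bZIP52 keeps the SW lines above the IT lines.

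Chromatin and DNA genes gave small changes at 2 weeks. *SWC2*, a subunit of the SWR1 complex that places the histone variant H2A.Z, was at 11.5, 13.9 and 25.7 FPKM in SW and 5.61, 6.63 and 14.8 in IT. In the mutants *SWC2* reached 27.0, 26.0, 25.0, 16.4 and 15.9 FPKM at 2 weeks, with own ratios of 1.04 to 1.49. Its 24 h ratios were 0.46, 0.42, 0.38, 0.24 and 0.33, so *SWC2* met the 24 h limit in it8 and in no other mutant line. The SWR1 genes *PIE1*, *ARP6* and *SEF* were at 0.84, −0.51 and 0.73 at 2 weeks in SW and at 0.95, −0.01 and 0.30 in IT, and AT2G47210 of the same complex was at 0.24 and 0.02. *PIE1* was higher at 24 h than at 2 weeks, with 24 h ratios of 1.3 in SW and 1.07 in IT. AT5G07810, a SNF2 and HNH endonuclease domain gene, was at 1.42, 1.3 and 3.81 FPKM in SW and at 0.904, 1.20 and 2.46 in IT, and its own 2-week ratios in the mutants ran from 0.75 to 1.06. AT5G07810 met the whole late pattern in sw-cbf2 and in no other mutant line. In the mutants all of its 2-week values, at 2.28 FPKM or more, were above its warm and 24 h values, at 1.69 or less.

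Genes tied to auxin, the hormone of cell expansion and tropic growth, took several courses. *IAMT1* encodes the enzyme that methylates indole-3-acetic acid. It was at 2.16, 1.97 and 5.10 FPKM in SW and 0.679, 0.482 and 2.27 in IT. Its own 2-week ratio was 0.93, 1.03, 1.23 and 0.97 in sw-cbf2, sw-cbf23, it8 and it33 but −0.17 in sw-cbf123, where *IAMT1* was at 4.64 FPKM in the warm and 4.06 at 2 weeks. The SAUR gene AT4G34810, of a family induced by auxin during cell expansion, was at 0.823, 0 and 2.96 FPKM in SW and 1.57, 0.488 and 4.06 in IT. It was listed at 0 at 24 h in SW, sw-cbf2 and sw-cbf23. Its own 2-week ratios were −0.08 and −0.36 in sw-cbf2 and sw-cbf23, whose warm levels were 2.85 and 4.12 FPKM, and 1.43, 1.59 and 1.74 in sw-cbf123, it8 and it33. Of all 77 genes with a SAUR-like or auxin-responsive protein as product, AT4G34810 included, 26 were at 2 FPKM or more at 2 weeks in SW, of which 5 were at 1 or more and 15 at −1 or less, and of 38 in IT 5 and 22 were.

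AT5G57770, of the auxin canalization family, was at 7.05, 5.94 and 19.1 FPKM in SW and 1.71, 1.84 and 5.33 in IT. Its rise at 2 weeks was seen in every mutant, at 20.7, 18.9, 20.2, 6.26 and 6.31 FPKM with own ratios of 2.30, 1.97, 2.30, 1.70 and 1.55. The 24 h ratios were 0.44, 0.32, 0.99, −0.51 and −0.71, so AT5G57770 missed the 24 h limit in the SW mutants. The SW lines were about as far above the IT lines at 2 weeks in the mutants as in the ecotypes, with a log2 ratio of 1.62 for sw-cbf123 over it8 and 1.75 for SW over IT. AT5G57770 overlaps AT5G57760 on the other strand, which was at 1.71 in SW and 1.75 in IT at 2 weeks and at 3.24 and 5.10 FPKM, and as the strand of the libraries is not stated, reads of the pair cannot be told apart. AT5G14090, known as LAZY1 for its role in shoot gravitropism, was at 3.66, 3.30 and 14.7 FPKM in SW and 1.62, 1.15 and 4.28 in IT. Its 2-week levels were 10.3 FPKM in sw-cbf2 and sw-cbf123, close to it in sw-cbf23, and 5.05 and 4.6 in it8 and it33, and the own ratios were 1.49, 0.97, 0.92, 1.34 and 0.95.

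Among enzymes, AT3G60290 took the same course in all 5 mutants. It belongs to the 2-oxoglutarate and iron dependent oxygenases, a large family with roles in hormone and secondary metabolism. AT3G60290 was at 11.5, 6.22 and 34.9 FPKM in SW and 3.91, 4.57 and 25.7 in IT. In the mutants it was at 6.58, 7.73, 7.13, 5.62 and 5.35 FPKM in the warm, at 4.2, 4.49, 4.48, 4.49 and 4.04 at 24 h and at 35.0, 32.1, 35.3, 22.4 and 24.4 at 2 weeks. The own ratios were 2.32, 1.99, 2.23, 1.90 and 2.09 at 2 weeks and −0.59, −0.72, −0.61, −0.30 and −0.36 at 24 h. The thioesterase-like gene AT5G48370 stood at 15.7 FPKM in SW and 18.4 in IT at 2 weeks, with own ratios of 1.07 to 1.51 in the mutants. AT5G48370 was above 0.3 at 24 h in sw-cbf2 (0.53), sw-cbf23 (0.59) and it33 (0.45). The hydrolase-like gene AT1G80280 stood at 9.56 and 12.4 FPKM, with own ratios of 1.27 to 1.78; it was above 0.3 at 24 h in 3 of the mutants, sw-cbf123 (0.39), it8 (0.85) and it33 (0.91). AT1G09910, annotated as a lyase of the pectin rhamnogalacturonan, stood at 4.71 and 2.51 FPKM, with own ratios of 0.65 to 1.68.

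Genes of membranes and the cell surface followed. AT1G29720, a leucine-rich repeat transmembrane kinase gene, was at 21.8, 21.5 and 54.1 FPKM in SW and 10.3, 11.3 and 23.9 in IT. It was at 51.2, 49.9, 51.2, 29.3 and 30.4 FPKM at 2 weeks in the mutants, with own ratios of 1.29 to 1.85. Its 24 h ratios were −0.02 in SW and 0.13 in IT but 0.27, 0.70, 0.46, 1.06 and 0.98 in the mutants, so AT1G29720 met the 24 h limit in sw-cbf2 and in no other mutant line. The xanthine and uracil permease gene AT5G49990 was at 10.3 FPKM in SW and 8.34 in IT at 2 weeks, with own ratios of 0.58 in it8 to 1.21 in it33. The reticulon gene AT2G15280, of a family that shapes the endoplasmic reticulum, was at 32.1 and 28.8 FPKM, and its 7 values at 2 weeks (28.8 to 36.5) were all above its other values (10.9 to 17.5). AT3G09590, of the CAP superfamily that includes PR1, was at 2.30 and 4.38 FPKM, with own ratios of 2.34 and 2.40 in it8 and it33 and of 0.62 to 0.97 in the SW mutants. AT1G77580, whose annotation as a filament-like protein does not place it at a membrane, was at 21.0 and 11.8 FPKM. Its own ratios ran from 0.49 in sw-cbf123 to 1.47 in it8.

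Organelle-related genes were *CRR42*, AT2G07715 and a pair of chloroplast IDs. *CRR42* is a nuclear gene needed to assemble the chloroplast NADH dehydrogenase-like complex. It was at 32.7, 28.5 and 83.8 FPKM in SW and 53.5, 54.3 and 135.9 in IT, and at 82.4, 77.0, 88.9, 124.4 and 135.6 at 2 weeks in the mutants. The warm levels of *CRR42* in the mutants, 42.3 to 46.9 FPKM in the SW lines and 65.5 and 67.4 in the IT lines, were above those of their parents, and its own ratios were 0.95, 0.78, 0.92, 0.88 and 1.04.

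ATCG00600 and ATCG00640 carry the prefix used for chloroplast loci and are not annotated in the table used. ATCG00640 was at 18.2, 18.4 and 51.0 FPKM in SW and 10.7, 12.1 and 43.9 in IT, and at 54.1, 56.5, 58.9, 27.4 and 27.9 at 2 weeks in the mutants, with own ratios of 1.28 to 2.74. ATCG00600 was at 11.3, 0 and 133.1 FPKM in SW and 119.6, 108.0 and 343.9 in IT, with own 2-week ratios of 0.67, 1.99, 1.67, −0.05 and 0.40. It was uneven at 24 h, at −2.53, 1.85 and −2.05 in sw-cbf2, sw-cbf23 and sw-cbf123. Such loci varied widely as a group: of 133 IDs with that prefix, 77 were at 2 FPKM or more at 2 weeks in SW, of which 23 were at 1 or more and 4 at −1 or less, and 63 in IT, of which 16 and 8 were. Their median 24 h ratio was −0.92 in sw-cbf2 and 0.96 in sw-cbf23. How much of the change of the chloroplast pair came from such shifts between columns was not tested.

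AT2G07715, annotated with an OB-fold nucleic acid-binding domain, was at 0.359, 0.359 and 3.01 FPKM in SW and 0.995, 0.745 and 3.52 in IT. It was at 3.29, 3.18, 3.11, 3.87 and 3.65 FPKM at 2 weeks in the mutants, with own ratios of 1.91, 1.98, 1.97, 1.49 and 1.54. These levels did not overlap the warm and 24 h values of the mutants, of which the highest was 1.05 FPKM. All 2565 bases of AT2G07715 (chromosome 2, 3410597 to 3413161) matched the mitochondrial genome at 99.8% identity, so that its reads cannot be assigned to the nuclear or the mitochondrial copy. Of 146 IDs with the prefix of mitochondrial loci, 11 were at 2 FPKM or more at 2 weeks in SW, of which 3 were at 1 or more, and 5 in IT, of which 2 were.

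The genes of unknown function completed the set. AT1G55675 was at 19.7, 16.5 and 40.3 FPKM in SW and 26.6, 28.1 and 89.4 in IT, and its own 2-week ratios were 0.66, 1.19, 1.17, 1.33 and 1.8. AT5G22310 was at 3.74 FPKM in SW and 3.16 in IT at 2 weeks, with own ratios of 1.20 to 2.12 at 2 weeks, and of 0.31 to 0.64 at 24 h. AT5G44660 was at 31.9 and 16.5 FPKM, with own 2-week ratios of 0.68 to 1.24. AT4G24275 was at 11.8 and 10.2 FPKM, with ratios of 0.37 in it33 to 1.96 in it8. The long non-coding RNA gene AT4G38545 was at 7.62 and 3.75 FPKM, with ratios of 0.72 to 1.47. It lies across *PLC1* and AT4G38540 on the other strand, and AT4G38540 was itself at 2.1 in SW and 0.27 in IT at 2 weeks. In all, 11 of the 29 annotated genes overlap another gene, and of the 11 partners with values AT5G57760 was the only one at 1 or more at 2 weeks in both ecotypes.

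The least even genes were a 162-base gene and an ID with no annotation. AT3G04184 was at 5.60, 1.65 and 12.5 FPKM in SW and 20.7, 11.5 and 42.9 in IT, and its own 2-week ratios were 1.47, 0.43, −0.85, 0.06 and 1.3. AT1G62181 was listed at 0 in warm SW and at 24 h in SW and IT, at 10.3 and 30.7 FPKM at 2 weeks in SW and IT, and at 12.6 in warm IT. It was listed at 0 in all 9 columns of the SW mutants. In it8 it was at 10.6 FPKM in the warm and 0 at 2 weeks, and in it33 at 0 in the warm and 22.6 at 2 weeks. Without AT1G62181, AT3G04184, ATCG00600 and ATCG00640, left out after their values were seen, the 2-week medians of the other 28 genes were 1.27, 1.1, 1.01, 1.47 and 1.44 in sw-cbf2, sw-cbf23, sw-cbf123, it8 and it33.

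The ratios of mutant over parent share the columns that chose the genes and are given as a description. At 2 weeks the median log2 ratio over the 32 genes was −0.02 for sw-cbf2, −0.04 for sw-cbf23 and −0.01 for sw-cbf123 over SW, and 0.01 for it8 and −0.06 for it33 over IT. At −1 or less were 1, 2, 2, 2 and 2 genes in that order (1.62%, 1.93%, 2.63%, 0.906% and 0.855% of all genes tested), AT1G62181 in the SW mutants and it8, *bZIP52* in sw-cbf23 (−1.14) and sw-cbf123 (−1.17), ATCG00600 in it8 (−1.68) and it33 (−1.35), and *MYB53* in it33 (−1.34). At 1 or more was *RL1* in it33 (1.1; 0.887% of all genes), and 0 genes in sw-cbf2 (2.5%), sw-cbf23 (3.42%), sw-cbf123 (3.44%) and it8 (0.733%). In columns the rule did not use, sw-cbf123 over sw-cbf2 at 2 weeks gave a median of −0.02 and a range of −0.44 to 0.45, with 0 genes at 1 or more (0.592% of all genes) and 0 at −1 or less (1.15%). At these shares of all genes a count of 0 among 32 is near the background, and AT1G62181 was listed at 0 in both columns. In the warm, 35s over IT gave a median of −0.02, with AT1G62181 the only gene at −1 or less and 0 at 1 or more (3.68% and 1.77% of all genes).

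The ratios of SW over IT also share those columns. SW was at least 2-fold above IT for 8 of the 32 in the warm (10.7% of all genes), 8 at 24 h (11.1%) and 5 at 2 weeks (9.23%), and at least 2-fold below for 3 (17.3%), 2 (15.5%) and 5 (13.5%). At 2 weeks the 5 above were *bZIP52* (log2 ratio 1.88), AT5G57770 (1.75), AT5G14090 (1.67), AT1G29720 (1.16) and *IAMT1* (1.01). The 5 below were AT3G04184 (−1.74), AT1G62181 (−1.53), ATCG00600 (−1.37), *MYB47* (−1.16) and AT1G55675 (−1.14). In columns the rule did not use, sw-cbf123 over it8 gave 0.88, 1.62, 0.97, 0.80 and 0.79 for the first 5, and −1.47, 0, 0.09, −0.48 and −0.88 for the others, with 2 of the 32 at 1 or more (6.34% of all genes) and 2 at −1 or less (10.8%). All 3 SW mutants lay above both IT mutants at 2 weeks for 19 genes (42.2% of 19235 genes) and below them for 9 (35.6%).

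**Figure D4:**
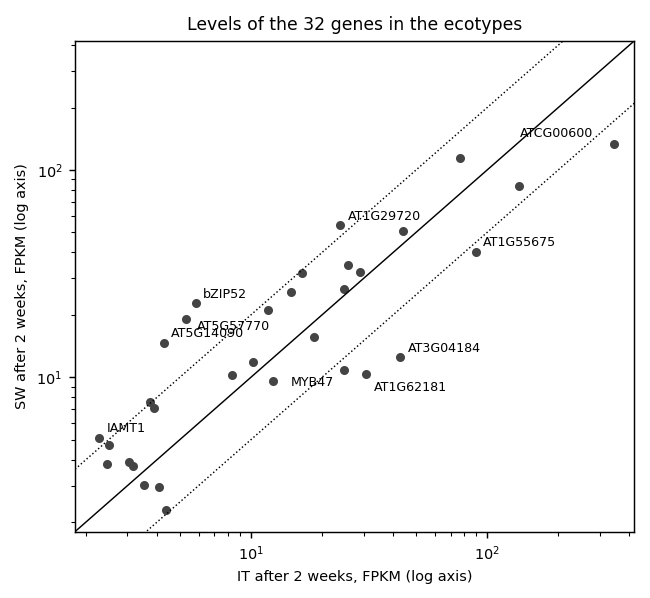
Levels of the 32 genes at 2 weeks in SW against IT, in FPKM on log axes; each point is a gene, the solid line marks equal levels and the dotted lines 2-fold differences. The 10 named genes lie outside the dotted lines, 5 above and 5 below.

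Other pathways were read from 10 lists of genes that had been set down by name, and 0 of the 32 genes were on any of them. The lists hold 10 to 24 genes each, of 33557, so a count of 0 among 32 is near the background. Of the 12 early cold genes listed, which include the *CBF* genes and *COR15A*, 12 were at 1 or more at 24 h in SW (14.6% of all genes) and 12 in IT (9.21%), and 10 at 2 weeks in each (9.39% and 7.89%). *VIN3* was listed at 0 FPKM in warm SW and IT, at 0.406 and 0.363 at 24 h and at 1.53 and 1.32 at 2 weeks, and missed the rule by its level under 2 FPKM and by its 24 h ratios of 0.86 and 0.79. Of the 23 vernalization and flowering genes, 4 of 18 tested were at 1 or more at 2 weeks in SW and 3 of 19 in IT, and 0 at −1 or less. At 1 or more and at −1 or less at 2 weeks in SW were 7 and 11 of 24 salicylic acid genes, 0 and 7 of 16 cell wall genes, 5 and 6 of 23 phenylpropanoid genes, 0 and 17 of 24 photosystem and Rubisco genes, 1 and 0 of 10 senescence genes, 0 and 8 of 12 glucosinolate genes, 0 and 1 of 8 phosphate genes and 3 and 2 of 8 iron genes, where 11.4% of all genes were at −1 or less. In IT the counts in the same order were 3 and 17 of 24, 1 and 2 of 16, 2 and 14 of 24, 1 and 6 of 24, 1 and 5 of 12, 0 and 2 of 12, 0 and 0 of 8, and 1 and 1 of 8, where 11.7% of all genes were at −1 or less. The photosystem counts at −1 or less include *LHCB1.3*, listed at 0 FPKM at 2 weeks against 5653 in warm SW and 9341 in warm IT. *LHCB1.1* of the same list was at 0.52 in SW and 1.28 in IT at 2 weeks, and the reason for the listed 0 was not tested.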

How the data were processed

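RNA of whole aerial parts was sequenced from 44 samples in 22 groups of 2, mapped to groups by their titles. The deposited values are FPKM, and each column is the authors' pooled value of a group, made with TopHat2 2.1.0, Cufflinks 2.1.1 and Cuffdiff (the submitters' processing notes; genome TAIR10). Pooling leaves no spread between samples, FPKM leaves the depth unknown, and no test could be run.

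Ratios are log2 after adding 0.5 FPKM, which understates changes of low genes. Counts over all genes used genes at 1 FPKM or more in either column compared, or, for the late pattern, at 2 FPKM or more at 2 weeks in the line. Positions and upstream windows come from TAIR10.1 (RefSeq), in which 32813 of 33557 genes were found. Windows not printed are not reported here. Copies of the genes were searched with BLAST at 95% identity or more over 50 bases or more. Python 3.11.15, NumPy 2.4.6, pandas 2.3.3 and matplotlib 3.10.9 were used, and the procedure was tested on simulated data. In the simulation a large, even rise was planted in well-expressed genes with little noise. It therefore checks the code only and does not bear on low genes or genes near a limit.

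The genes, gene lists, keywords and words were chosen with earlier results of these data known; the families of *RL1*, *EBP*, *SWC2* and AT4G34810 and the organelle IDs were added after the genes had been seen. Every one of the 32 genes is named; those given in full were picked by rank of the 2-week ratio, level, response in the mutants, SW to IT ratio, 24 h ratio, nearness to a threshold and likeness to the mean course of the 32. Alternatives were other pseudocounts (0.1 and 1 FPKM), quantile normalization over the 22 columns, median-of-ratios scaling and other filters.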

Additional observations from a re-analysis of the deposited data

Results flagged for a closer look

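In 3 of the 32 genes lines moved in opposite directions by 2-fold or more from their own warm level. Each rests on 1 pooled value a group, the differences were not tested, and no cause was tested. AT1G62181 had a 2-week log2 ratio of 5.53 in it33 and of −4.47 in it8, each against a value listed at 0. *RL1* had a 24 h log2 ratio of 2.36 in it33 and of −1.38 in sw-cbf2. ATCG00600 had a 24 h log2 ratio of 1.85 in sw-cbf23 and of −4.56 in SW, where it was listed at 0 FPKM at 24 h.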

How the results depend on the processing

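The number of genes with the late pattern, 32, depended on where its limits were set. It was 37 with 0.1 FPKM added, 27 with 1 FPKM, 37 after quantile normalization, 31 after median-of-ratios scaling and 42 with no filter on low values, and 21 with 5 FPKM required in both 2-week columns. A 24 h limit of 0 gave 12 and a limit of 0.5 gave 54. Of the 32 genes themselves, 29, 22, 29 and 29 still met the rule under the first 4 settings. For the shares of the 32 genes in the mutant lines and the numbers within 2-fold between lines, every alternative run stayed within 1.5 times. With no filter, the share of all genes at 1 or more at 2 weeks was 5.73%, 5.32%, 5.35%, 4.74% and 4.41% in sw-cbf2, sw-cbf23, sw-cbf123, it8 and it33. Of 896 ratios of single genes at 2 weeks under the alternatives, 50 lay on the other side of 1 and 0 called ratios changed sign. No paired analysis was possible because each group has 1 pooled column, and for the same reason no replicate could be left out. Cold, age and light cannot be told apart, and at unknown depth the error of genes under 10 FPKM is not known.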
